A study of Mus musculus with 9 samples.

Results

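This report describes 10 transcription factor and early response genes, the Krüppel-like factors Klf2, Klf4, Klf6, Klf9 and Klf10, the early growth response factors Egr1, Egr2 and Egr3, the orphan nuclear receptor Nr4a1 and the immediate early gene Ier2, in hepatic stellate cells of mice with and without Yap1. The 10 were chosen by name from a deposited table of 35024 gene rows, and all 10 were found in it. The table has 9 libraries. The labels put 5 in a control group (LYT004, LYT005, LYT014, LYT015 and LYT017), from mice with floxed Yap1 and no Cre, and 4 in a YAP-deleted group (LYT006, LYT008, LYT013 and LYT016), from mice with floxed Yap1 that also carried LratCre, a Cre recombinase driven by the promoter of the retinoid esterifying enzyme Lrat, which is active in stellate cells. Both groups were on the C57BL/6J background and both had received carbon tetrachloride (CCl4, a hepatotoxin) 6 times, 3 days apart, with the cells sorted on their retinoid fluorescence 2 days after the last dose and lysed at once. Every YAP-deleted mouse carried the Cre and no control did, so that an effect of the Cre and an effect of Yap1 loss cannot be told apart. The labels give no ages or sexes, and nothing in them says that the libraries are from different mice. The p-values below therefore describe library-to-library spread, which could be technical.

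Stellate cells are the pericytes of the liver sinusoid, which store vitamin A and become collagen-producing myofibroblasts after injury. Most of the genes described here are immediate early genes, switched on without new protein synthesis by growth factors, stretch, cytokines and also by cell isolation, through factors such as serum response factor, MEF2 and CREB, and they encode nuclear regulators of slower genes. EGR proteins bind GC-rich sites through zinc fingers, KLF proteins bind GC and CACCC boxes through related fingers, NR4A1 is a nuclear receptor that needs no ligand, and IER2 is a small nuclear protein. KLF6 was cloned from activated stellate cells, KLF2 and KLF4 are known from endothelium under flow and from macrophages, KLF9 is a glucocorticoid and thyroid hormone target, and KLF10 is induced by TGF-beta.

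Of the 10 genes, 6 had an entry in the RefSeq promoter table on GRCm38.p6, which gives 250 bases before and 50 after the annotated start: Klf2, Klf4, Klf6, Klf9, Egr2 and Nr4a1. Egr1, Egr3, Klf10 and Ier2 had none. The promoters of 4 are shown here because Klf2, Klf4 and Nr4a1 shared their 2 highest libraries and Klf9 had its lowest value in the same library, as described further on. Each is written 5′ to 3′ on the gene's strand, from base -250 to base -31 counted from the RefSeq start. Capitals mark 4 motifs searched on both strands: the core TGACG of the cyclic AMP response element, the EGR motif GCGNGGGCG, the MEF2 box and the TEAD motif CATTCC, the element through which YAP acts with TEAD factors.

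Klf2 promoter, chr8:72318812-72319031, plus strand: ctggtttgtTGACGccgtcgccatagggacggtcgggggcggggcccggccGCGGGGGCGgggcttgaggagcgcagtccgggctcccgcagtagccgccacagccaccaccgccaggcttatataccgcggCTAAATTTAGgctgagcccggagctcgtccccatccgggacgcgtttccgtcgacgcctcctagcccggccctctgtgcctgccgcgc
Klf4 promoter, chr4:55532506-55532725, minus strand: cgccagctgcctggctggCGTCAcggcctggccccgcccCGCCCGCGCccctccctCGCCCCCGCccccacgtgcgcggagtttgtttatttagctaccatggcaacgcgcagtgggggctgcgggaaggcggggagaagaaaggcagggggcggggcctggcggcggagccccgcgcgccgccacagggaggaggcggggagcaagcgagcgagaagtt
Nr4a1 promoter, chr15:101266596-101266815, plus strand: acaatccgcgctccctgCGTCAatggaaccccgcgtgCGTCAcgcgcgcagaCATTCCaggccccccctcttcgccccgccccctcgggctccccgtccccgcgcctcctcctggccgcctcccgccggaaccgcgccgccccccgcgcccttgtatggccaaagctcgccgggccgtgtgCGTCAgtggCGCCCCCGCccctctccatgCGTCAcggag
Klf9 promoter, chr19:23140976-23141195, plus strand: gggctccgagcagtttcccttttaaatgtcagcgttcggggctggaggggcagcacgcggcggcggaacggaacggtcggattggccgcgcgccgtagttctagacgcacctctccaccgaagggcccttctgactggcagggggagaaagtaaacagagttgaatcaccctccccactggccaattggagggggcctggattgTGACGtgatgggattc

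The TGACG core was found in 4 of the 6 windows of 300 bases, against 20.8% of all 32851 windows of that length in the table. Nr4a1 held 4 copies, and Klf2, Klf4 and Klf9 held 1 each. The EGR motif was found in 3 of 6 (Klf2, Klf4 with 2 copies, and Nr4a1), against 5.55% of all windows. It can overlap the GC box GGGCGG, which was present in 5 of 6 windows (all but Klf9), against 35.7%. The MEF2 box was found in Klf2 alone, against 3.19% of all windows. The TEAD motif was found in Nr4a1 alone, against 14.7%. The CArG box of serum response factor, the full element TGACGTCA and the NR4A motif AAAGGTCA were in none of the 6 windows, against 1.63%, 1.79% and 1.51%. These matches describe letters in a short window and say nothing of whether a factor binds there.

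The targeted gene checked the labels first. Yap1 had 2910 to 3663 normalised counts (counts recovered from the deposited values, divided by the size factor of the library) in 4 control libraries and 644 to 650 in 3 YAP-deleted libraries. LYT014, labelled control, had 620, and LYT013, labelled YAP-deleted, had 2537, so both went against their labels. Comparisons are therefore given for the 9 libraries as labelled and again for the 7 without these 2, and no library was moved to another group. Recovered totals ran from 14052502 counts (LYT017) to 31816055 (LYT013). All 8 stellate markers checked were present, with Lrat at 35310 to 69754 normalised counts. Their sum was lowest in LYT013 and LYT014, though none of the 8 had these as its lowest 2 libraries. The 4 lymphoid and 4 neutrophil markers checked summed to at most 13.8 and 9.6. LYT013 also stood apart in the mean of 86 ribosomal protein genes, 12.48 log2-like units against 11.36 to 11.56 in the others.

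Early response genes were among the most abundant transcripts of these sorted cells. Egr1 ranked 25 of 17203 tested genes by mean level, and Nr4a1, Egr2 and Ier2 also stood in the top 2% (percentiles 99.5, 98.5 and 98.1). Klf2, Klf4, Klf6 and Klf9 lay between percentiles 95.2 and 96.1, Klf10 at 68.4 and Egr3 at 48.4. Per kilobase of the longest coding transcript in GENCODE M21, Egr1 led with 13732 ± 2387 normalised counts per kb (SD, n = 9), followed by Nr4a1 with 9302 ± 1558 and Ier2 with 5040 ± 1489. Egr2 (3056 ± 737) and Klf2 (2535 ± 1407) came next, then Klf4 (1320 ± 595), Klf9 (993 ± 315) and Klf6 (993 ± 167). Klf10 (187 ± 43.5) and Egr3 (53.7 ± 35.1) were lowest. The order of most neighbours held library by library: Nr4a1 was above Ier2, Ier2 above Egr2, Klf2 above Klf4, Klf6 above Klf10 and Klf10 above Egr3 in 9 of 9 libraries, and Egr1 above Nr4a1 and Egr2 above Klf2 in 8 of 9. Klf4 against Klf9 and Klf9 against Klf6 were split 5 to 4. The ranges of neighbours over the libraries overlapped for every neighbouring pair other than Klf6 with Klf10 and Klf10 with Egr3.

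**Figure D1:**
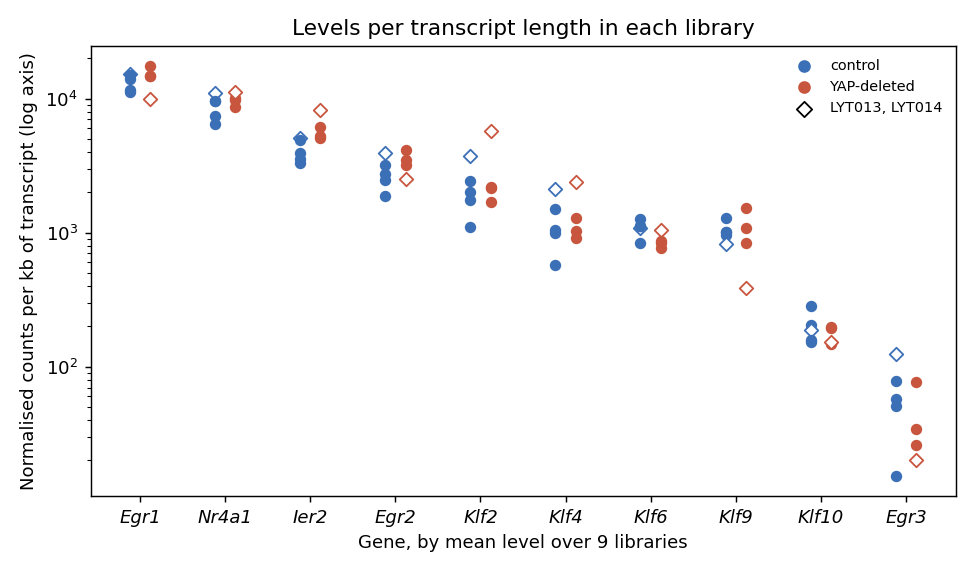
Normalised counts per kb of transcript (log axis) for the 10 genes, ordered by mean over 9 libraries, 1 point per library, controls in blue and YAP-deleted in red, LYT013 and LYT014 as open diamonds. Egr1 lies highest, at 9852 to 17367 per kb, and Egr3 lowest, at 15.4 to 124.

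The question of the design is whether Yap1 loss changes these genes in stellate cells of the injured liver. None of the 10 differed between the groups after adjustment in the 9 libraries as labelled, where limma with Benjamini-Hochberg adjustment called 0 of 17203 genes (0%). The adjusted p-values of the 10 ran from 0.649 to 0.933. Yap1 itself was not called, at -1.30 ± 0.54 log2-like units (SE, limma adjusted p = 0.649). A gene not called in this fit therefore need not be unchanged. At an unadjusted p under 0.05 there was 1 of the 10 (Ier2, higher), against 7.22% of all tested genes (3.53% higher and 3.69% lower). None of the 10 had groups that did not overlap, against 1.69% of genes with every YAP-deleted library higher and 1.15% with every one lower. Of the 10 differences, 6 were above 0, against 49.1% of all tested genes, and their median was 0.13 log2-like units, against -0.0045 over all tested genes. Without LYT013 and LYT014 limma called 12 of 17296 genes (0.0694%, with 0.0173% higher and 0.052% lower). Yap1 was among them, at -2.22 ± 0.10 (SE, limma adjusted p = 8.04e-05). Again none of the 10 was called, with adjusted p-values from 0.613 to 0.981. Unadjusted, 3 of the 10 were under 0.05 (Ier2 and Egr2 higher, Klf6 lower), against 6.31% of all genes (3.27% higher and 3.04% lower). Of the 10 differences 7 were above 0, against 48.4%, and the median was 0.16. A count-based test, limma voom, likewise called none of the 10 in either set of libraries.

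**Figure D2:**
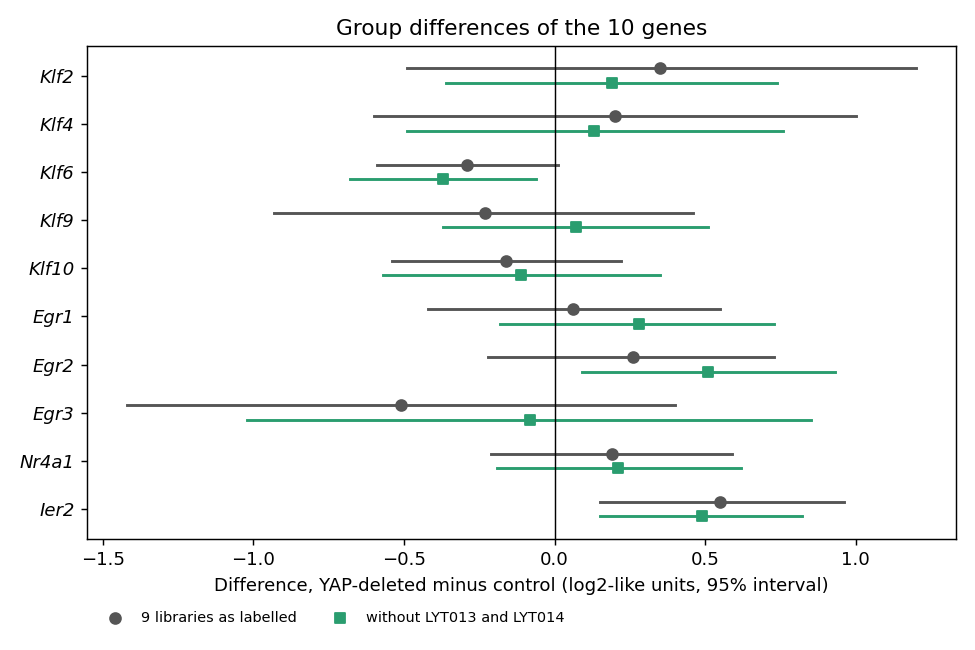
Difference of each gene between YAP-deleted and control libraries in log2-like units, with its 95% interval from limma, for the 9 libraries as labelled (grey circles) and for the 7 without LYT013 and LYT014 (green squares). In the 7 libraries the intervals of Ier2, Egr2 and Klf6 exclude 0 before adjustment, and none passes after it.

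Ier2 (GRCm38 chromosome 8, 84661331 to 84662852, a single exon on the minus strand), whose product acts in the nucleus of newly stimulated cells, gave the most uniform separation. The control libraries LYT004, LYT005, LYT014, LYT015 and LYT017 had 5935, 5042, 7769, 7492 and 5353 normalised counts. In the YAP-deleted group the values were 9281 (LYT006), 7947 (LYT008), 12465 (LYT013) and 7662 (LYT016). All but 1 comparison between a YAP-deleted and a control library went upward, since LYT016 lay just under LYT014. The means were 6318 ± 1244 (SD, n = 5) and 9339 ± 2200 (SD, n = 4), a 1.48-fold ratio, and the difference was 0.55 ± 0.18 log2-like units (SE, 95% interval 0.15 to 0.96), with a limma adjusted p = 0.649. Among the 7 libraries it was the 1 of 10 genes whose groups did not overlap in the higher direction, against 3.86% of all tested genes, and none of the 10 was separated in the lower direction, against 3.46%. There the means were 5956 ± 1089 (SD, n = 4) and 8297 ± 865 (SD, n = 3), with a difference of 0.49 ± 0.15 and a limma adjusted p = 0.613. Split by library code, Ier2 differed by 0.64 ± 0.14 in codes 4 to 8, all of which had the Yap1 level of their label. In codes 13 to 17, which include LYT013 and LYT014, it differed by 0.52 ± 0.28. The highest Ier2 value of the 9 was that of LYT013, whose Yap1 level went against its label. Of 11 macrophage markers 10 had a difference above 0 in both sets of libraries, with a median of 0.23, and they summed to 292 to 1008 normalised counts in the controls and 536 to 1658 in the YAP-deleted libraries. None of them passed, and their part in the Ier2 difference was not tested. The 10 endothelial markers had medians of -0.06 and 0.03, with 4 and 5 of the 10 above 0, and went both ways. Pecam1 was at 0.48 ± 0.17 as labelled and 0.58 ± 0.20 in the 7 libraries (limma adjusted p = 0.649 and 0.662). Tie1 was at 0.45 ± 0.25 and 0.63 ± 0.27, and Lyve1 at -0.42 ± 0.32 and -0.41 ± 0.25. None of the 10 passed, and their part in the Ier2 difference was not tested.

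The 3 EGR factors are paralogs with nearly the same DNA-binding fingers. Egr1 (chromosome 18, with 2 exons), the most abundant of them, had 62666, 51619, 68047, 67450 and 50076 normalised counts in control LYT004, LYT005, LYT014, LYT015 and LYT017. It had 77802, 66396, 44135 and 65497 in YAP-deleted LYT006, LYT008, LYT013 and LYT016. The lowest and the highest of the 9 values both belong to libraries labelled YAP-deleted, and the groups overlapped. The difference was 0.06 ± 0.22 log2-like units (SE, 95% interval -0.42 to 0.55, limma adjusted p = 0.933), and 0.28 ± 0.20 in the 7 libraries (interval -0.18 to 0.73, limma adjusted p = 0.879). Its direction was not stable: it was 0.34 among codes 4 to 8, -0.19 among codes 13 to 17 and -0.044 without LYT006.

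Egr2 (chromosome 10, 67535475 to 67542188, plus strand), an EGR factor best known from Schwann cell myelination and from macrophages, had 9428, 7248, 11552, 8138 and 5525 normalised counts in the control libraries in the same order, and 12323, 10351, 7420 and 9425 in the YAP-deleted ones. LYT014 was the highest control and LYT013 the lowest YAP-deleted library. The difference was 0.26 ± 0.21 as labelled (limma adjusted p = 0.701), and 0.12 without LYT017. Without these 2 libraries it was 0.51 ± 0.18 (interval 0.09 to 0.93, limma adjusted p = 0.709), from 7585 ± 1639 (SD, n = 4) to 10700 ± 1480 (SD, n = 3), and the highest control of the 7, LYT004 at 9428, lay just above the lowest YAP-deleted library, LYT016 at 9425.

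Egr3 (chromosome 14, 70077203 to 70082614, plus strand) varied most of the 10, by 8.07-fold. It had 307, 228, 489, 200 and 60.6 normalised counts in the controls and 135, 302, 79.2 and 103 in the YAP-deleted libraries. LYT014 was highest, as it was for 1 of the 10 genes against 9.26% of all tested genes, LYT017 was lowest, and the groups overlapped. Its difference of -0.51 ± 0.41 as labelled was -0.08 ± 0.41 in the 7 libraries (interval -1.02 to 0.85, limma adjusted p = 0.981). At 45 to 608 recovered counts per library, Egr3 has the least depth of the 10.

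Nr4a1 (chromosome 15, 101254269 to 101274795, plus strand), a receptor induced by calcium and cyclic AMP signals, was steady. The controls had 24453, 18857, 27915, 24648 and 16506 normalised counts and the YAP-deleted libraries 24859, 25750, 28527 and 21966. LYT013 and LYT014 were the highest 2 and LYT017 the lowest, and the groups overlapped. The difference was 0.19 ± 0.18 as labelled (interval -0.21 to 0.59, limma adjusted p = 0.736) and 0.21 ± 0.18 in the 7 libraries (limma adjusted p = 0.909). Without LYT017 these were 0.084 and 0.10. Its spread over the 9 libraries, an SD of 0.26 log2-like units, stood at percentile 39.1 among 64 tested genes within 0.5 units of its level.

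**Figure D3:**
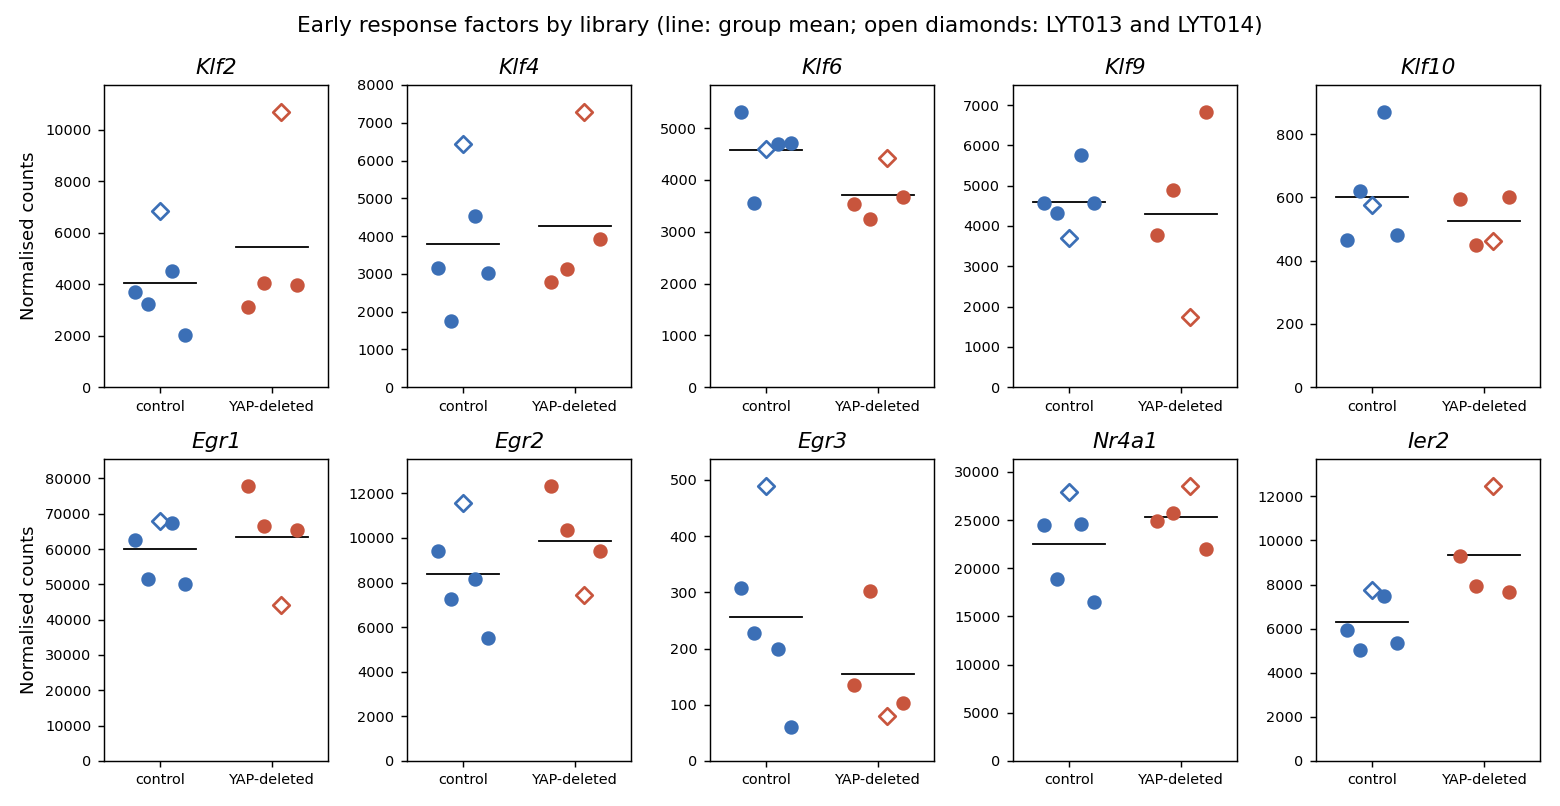
Normalised counts (linear axes from 0) of each gene by library, controls in blue and YAP-deleted in red, lines at the group means, LYT013 and LYT014 as open diamonds. In Klf2 and Klf4 both diamonds lie above every filled point, and in Klf9 both lie below.

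Klf2 and Klf4, related factors of quiescent endothelium that can replace each other in part, had their 2 highest values in the 2 libraries whose Yap1 went against the label. For Klf2 (chromosome 8, 72319033 to 72321656, plus strand) the normalised counts were 3692, 3230, 4522 and 2029 in controls LYT004, LYT005, LYT015 and LYT017. The YAP-deleted LYT006, LYT008 and LYT016 had 3127, 4068 and 3988, whereas LYT014 had 6864 and LYT013 had 10684. LYT013 was thus 3.03-fold and LYT014 1.95-fold above the mean of the other 7. Klf4 (chromosome 4, 55527143 to 55532466, minus strand) had 3151, 1742, 4531 and 3031 in these controls and 2780, 3136 and 3916 in these YAP-deleted libraries, against 6448 in LYT014 and 7274 in LYT013, or 2.03-fold and 2.28-fold the mean of the 7. With Nr4a1, 3 of the 10 genes had LYT013 and LYT014 as their highest 2 libraries, against 4.16% of all tested genes.

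Because 1 of these libraries is labelled control and 1 YAP-deleted, they add spread to both groups. The Klf2 difference was 0.35 ± 0.38 as labelled (interval -0.49 to 1.20, limma adjusted p = 0.761), 0.19 ± 0.24 in the 7 libraries (interval -0.36 to 0.74, limma adjusted p = 0.942) and -0.024 without LYT013 alone. That of Klf4 was 0.20 ± 0.36 (interval -0.60 to 1.00, limma adjusted p = 0.856), 0.13 ± 0.28 (interval -0.49 to 0.76) and -0.088 without LYT013. The spread of both genes was wide for their level, with SDs at percentiles 97.9 and 97.3 of the tested genes within 0.5 log2-like units. Marker sums of other cells differed in these libraries too. The 10 endothelial markers together had 5113 normalised counts in LYT013 and 4582 in LYT014, against 1792 to 3737 in the other 7, and none was at 0 in all libraries. The lectin Clec4g made up 3095 of the 5113, and of the 10 markers Egfl7 alone had LYT013 and LYT014 as its highest 2 libraries. Kdr, Stab2, Oit3, Cdh5 and Lyve1 were highest in LYT014. Kdr had 484 there, against 6.15 to 119 in the others, and Stab2 had 410, against 6.15 to 182. In LYT013 all of these lay within the range of the other 7, below LYT017. Pecam1 (367 and 328, against 196 to 523) and Tie1 (186 and 202, against 134 to 514) lay within the range of the other 7. Tek (182 and 296, against 174 to 311) did too. Klf2 had a positive r with 8 of the 10 over 9 libraries and with 1 of the 10 over the 7, and LYT017, lowest for Klf2, had the highest endothelial sum of the 7. Klf4 had a positive r with 8 of the 10 in both sets. The 11 macrophage markers together had 1348 and 1008, against 292 to 1658, and over the 7 libraries Klf4 had r from 0.56 to 0.88 with them and Klf2 from -0.20 to 0.39. The sum of the 8 stellate markers was lowest in LYT013 (563008) and LYT014 (710174), against 773535 to 876584. None of the 8 had these as its lowest 2 libraries. Dcn, the most abundant, had 274338 and 269003, against 219899 to 340061 in the other 7. Lrat, Hgf, Reln and Pdgfrb were lowest in LYT013, whereas Des was highest there (12017, against 5254 to 6833 in the others). The part of cell composition in the Klf2 and Klf4 values was not tested. In bulk libraries fewer cells of a type and less RNA per cell cannot be told apart.

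Klf9 (chromosome 19, 23141226 to 23168134, plus strand) was instead lowest in LYT013, as were 24.6% of all tested genes. LYT013 had 1738 normalised counts and LYT014 3701, the lowest 2 of the 9, with LYT014 just under LYT006 at 3770. The share of all genes with these as their lowest 2 libraries was not counted. The other controls had 4568 (LYT004), 4311 (LYT005), 5772 (LYT015) and 4576 (LYT017). The YAP-deleted LYT006, LYT008 and LYT016 had 3770, 4892 and 6817, so the groups overlapped. The difference was -0.23 ± 0.31 as labelled (interval -0.93 to 0.46, limma adjusted p = 0.802) and 0.07 ± 0.19 in the 7 libraries (interval -0.37 to 0.51, limma adjusted p = 0.970), and 0.14 without LYT013 alone, the library that also had the lowest sum of stellate markers. Among codes 4 to 8, which do not include LYT013, it was -0.05. The highest library, LYT016, was also highest for the glucocorticoid-induced genes Fkbp5 (4284, against 1027 to 2547) and Zbtb16 (3702, against 193 to 1911), which were chosen for mention after their values were seen. Over the 9 libraries Klf9 had a positive r with 7 of 9 glucocorticoid response genes (0.60 with Fkbp5, 0.66 with Zbtb16) and a negative one with the metallothioneins Mt1 (-0.68) and Mt2 (-0.66), whose highest 2 libraries were LYT013 and LYT014. Over the 7 libraries its r with Mt1 was 0.40 and with Mt2 0.45, and with Tsc22d3 it was -0.09. LYT016 also had the highest sum of the 11 macrophage markers (1658, against 292 to 1348 in the others). Klf9 had a positive r with 8 of these 11 over the 9 libraries (-0.67 to 0.51). Over the 7 libraries it had a positive r with all 11 (0.48 to 0.94). The part of glucocorticoid response or of macrophages in the Klf9 values was not tested. Of 9 glucocorticoid response genes, none passed in either set of libraries. Their median differences were 0.21 and 0.23, with Tsc22d3 at 0.23 ± 0.08 and Mt1 at 0.59 ± 0.21 in the 7 (limma adjusted p = 0.669 and 0.705).

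Klf6 (chromosome 13, 5861482 to 5870394, plus strand), the factor cloned from activated stellate cells, had the tightest spread of the KLF genes, 1.64-fold from lowest to highest. The controls had 5304, 3546, 4589, 4703 and 4709 normalised counts in LYT004, LYT005, LYT014, LYT015 and LYT017, and the YAP-deleted libraries 3542, 3243, 4415 and 3673 in LYT006, LYT008, LYT013 and LYT016. Of the 5 controls, 4 lay above every YAP-deleted library, and LYT005 lay among them. The difference was -0.29 ± 0.14 as labelled (interval -0.59 to 0.01, limma adjusted p = 0.649) and -0.37 ± 0.14 in the 7 libraries (interval -0.68 to -0.06, limma adjusted p = 0.722). It was -0.35 among codes 4 to 8 and -0.21 among codes 13 to 17, and negative when any 1 library was left out. 

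Klf10 (chromosome 15, 38291463 to 38300706, minus strand), a repressor induced by TGF-beta, had 465, 620, 576, 869 and 481 in the controls and 596, 448, 461 and 601 in the YAP-deleted libraries. Control LYT015 was highest, and the other 8 libraries lay between 448 and 620 with the groups mixed. The difference was -0.16 ± 0.17 as labelled (interval -0.54 to 0.22, limma adjusted p = 0.765) and -0.11 ± 0.20 in the 7 libraries (interval -0.57 to 0.35), where it was 0.063 without LYT015.

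The 10 genes did not vary as 1 block. Among the 45 pairs, 3 had r above 0.8 over the 9 libraries (Klf2 with Klf4, Klf2 with Nr4a1, and Egr1 with Egr2, each 0.82), and 29 were positive. In the 7 libraries 5 pairs were above 0.8: Egr1 with Ier2 (0.94), Egr2 (0.91) and Nr4a1 (0.88), and Egr2 with Nr4a1 (0.87) and Ier2 (0.82). With LYT013 and LYT014 included, Egr1 with Ier2 was 0.06. LYT013 had the highest Ier2 and Nr4a1 and the lowest Egr1, but no r was computed without LYT013 alone. LYT013 was the highest or the lowest library for 6 of the 10 genes. It was highest for 4, against 26.8% of all tested genes, and lowest for 2, against 24.6%. LYT017, the library with the fewest counts, was lowest for 4 of 10 (Klf2, Egr2, Egr3 and Nr4a1), against 7.81% of all genes. These correlations describe 9 or 7 libraries that differ in depth and origin.

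**Figure D4:**
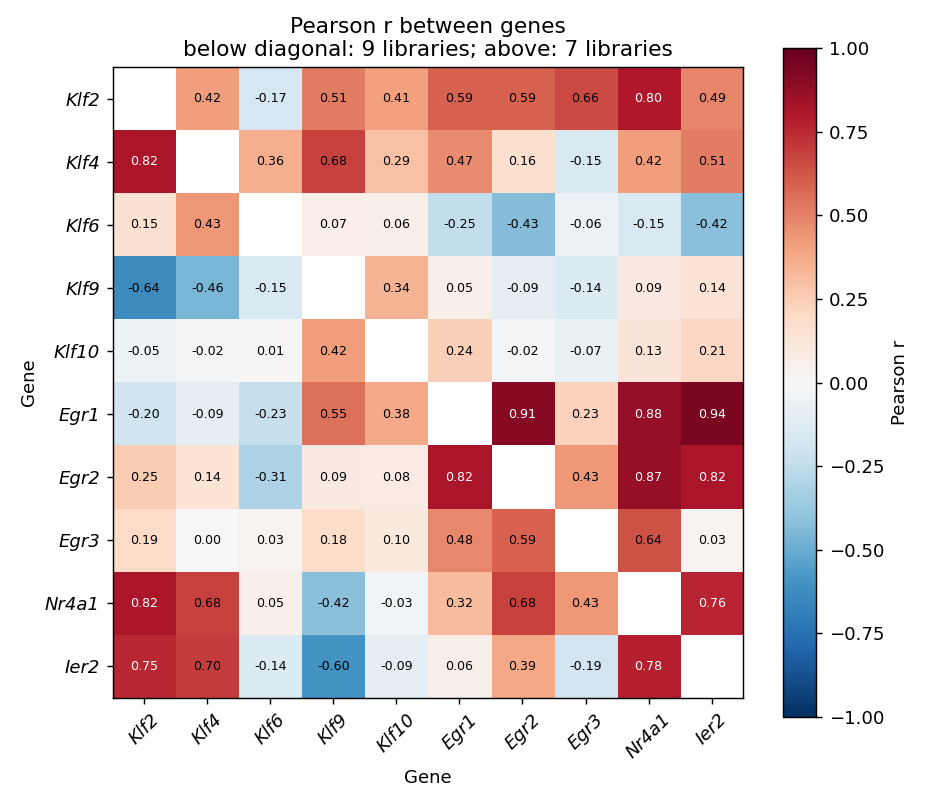
Pearson r between every pair of the 10 genes across libraries, below the diagonal for 9 libraries and above it for the 7 without LYT013 and LYT014. Egr1, Egr2, Nr4a1 and Ier2 form pairs from 0.76 to 0.94 above the diagonal, and Klf9 with Klf2 turns from -0.64 to 0.51.

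Genes outside the 10 with the most similar course were sought among 8593 tested genes at or above the median level. For the mean of the 10 they were the phosphatase Ptpn1 (r = 0.925 over 9 libraries), the phosphodiesterase Pde4b (0.897) and the small GTPase Gem (0.895). Klf2 was matched best by the ornithine decarboxylase Odc1 (0.965), Mt2 (0.962) and Sbno2 (0.962). Klf9 was matched by Nup214 (0.981), Pik3r1 (0.967) and Foxo3 (0.966), and Egr1 by Zfp36l2 (0.959), Ntng2 (0.958) and Spon1 (0.937). All these genes were picked for the highest r among 8593, over 9 libraries only. LYT013 was the highest library for Klf2 and the lowest for Klf9 and Egr1. It was also highest for 26.8% of all tested genes and lowest for 24.6%. Whether these r hold without LYT013 and LYT014 was not tested.

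The AP-1 factors, induced by the same stimuli, are the nearest relatives in response. None of 8 passed in either set of libraries, and 6 of 8 differences were above 0 in each, with medians of 0.31 as labelled and 0.22 in the 7 libraries. Junb (0.46 ± 0.22) and Jund (0.60 ± 0.30) had the smallest p-values as labelled, both with a limma adjusted p = 0.649. Ier2 and Junb ran almost in parallel, with r = 0.98 over 9 and over 7 libraries. Junb had 25175 to 39815 normalised counts in the controls and 35639 to 55324 in the YAP-deleted libraries. Atf3, a stress-induced factor of the family, was highest in LYT013 (14660) and LYT014 (8530), against 2633 to 5668 in the other 7, as Klf2 and Klf4 were. LYT013 and LYT014 were the highest 2 libraries for 4 of the 8 AP-1 factors (Fosb, Fosl1, Jund and Atf3) and for 10 of 23 further early response genes, against the 4.16% of all tested genes given above. Fos was not among them, with 55379 in LYT013 and 74987 in LYT014, against 55277 to 85861.

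**Figure D5:**
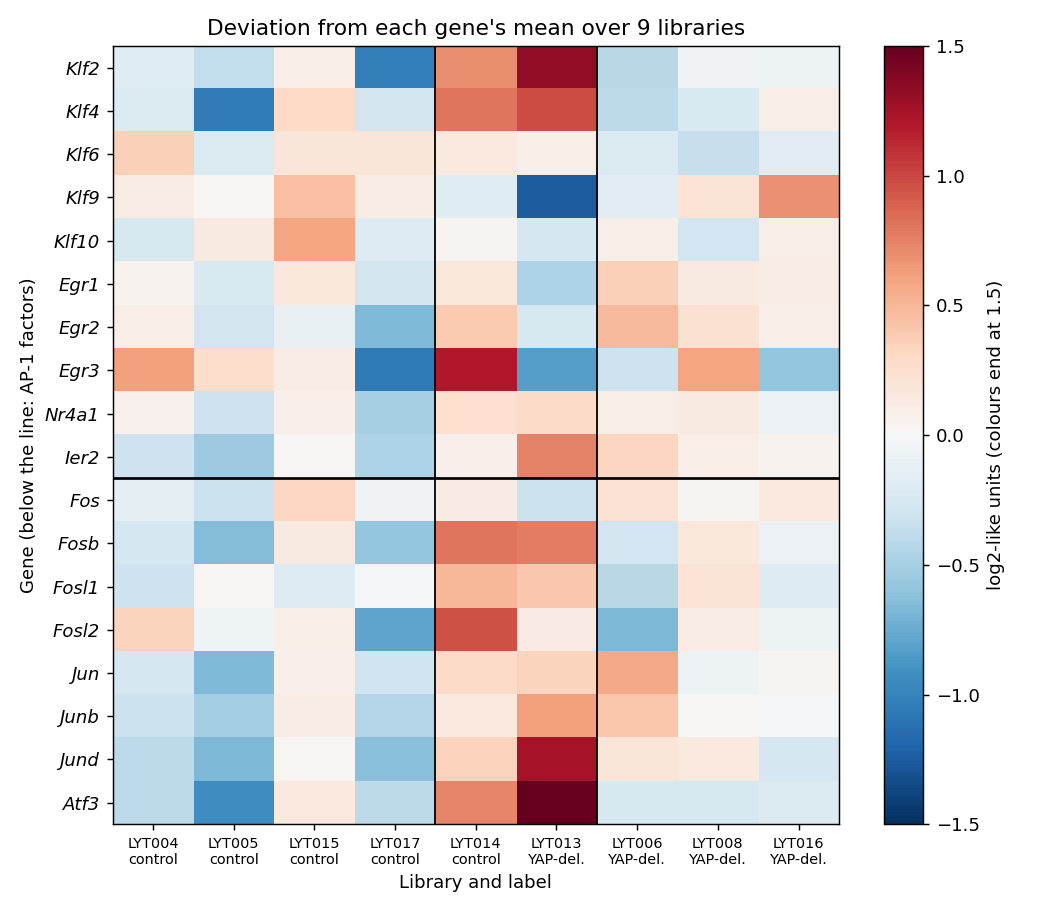
Deviation of each gene from its mean over 9 libraries in log2-like units, for the 10 genes above the black line and 8 AP-1 factors below it, with LYT014 and LYT013 in the middle columns. Klf2 lies 0.70 and 1.33 above its mean in LYT014 and LYT013, while Egr1 lies 0.17 above and 0.46 below.

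Of 23 further early response genes none passed, with 20 of 23 differences above 0 as labelled (median 0.20) and 18 of 23 in the 7 libraries (median 0.21). The cytokine-induced factor Cebpd was at 0.71 ± 0.24 and the matricellular YAP target Ccn1 at -0.62 ± 0.27 as labelled (both limma adjusted p = 0.649). In the 7 libraries they were at 0.59 ± 0.14 and -0.95 ± 0.23, with limma adjusted p-values of 0.532 and 0.520. Of 12 other KLF genes, 10 passed the filter on low values as labelled and 9 in the 7 libraries, and none differed. The repressor Klf12 had the smallest p, at -0.65 ± 0.19 and -0.52 ± 0.14 (limma adjusted p = 0.649 and 0.572), and Klf17 was at 0 in all libraries. Among the EGR and NR4A relatives and the NAB corepressors, which bind EGR proteins, 0 of 5 passed. Nab1 was at -0.15 ± 0.11 and Nab2 at -0.05 ± 0.16 as labelled. None of 16 measured genes of the serum response factor, MEF2 and CREB pathways passed, with Mrtfb at -0.30 ± 0.15 and the kinase Mapk7 at 0.20 ± 0.10. None of 12 dual specificity phosphatase and sprouty feedback genes passed, with medians of 0.06 and 0.13.

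Heat shock genes also respond to cell isolation. None of 11 passed, with medians of -0.02 and -0.08, and they were split in LYT013 and LYT014. The cochaperones Dnajb1 and Dnajb4 had these as their highest 2 libraries, Dnajb1 with 3018 and 5406 normalised counts against 1519 to 2932 in the other 7. The inducible chaperones Hspa1a and Hspa1b had them as their lowest 2, Hspa1b with 11826 and 13966 against 26487 to 86311. The other 7 heat shock genes had neither pattern.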

How the data were processed

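RNA sequencing libraries of sorted stellate cells were used, 5 control and 4 YAP-deleted, grouped by their titles. The tools named by the submitters' processing notes are kallisto 0.44.0, sleuth and bcl2fastq 2.20, and the builds mm10, GRCm38 and GRCh38, all without a role. The values deposited by the authors are variance-stabilised, on a log2-like scale with a lowest value of 4.96. No source used here says how they were made. The labels name a poly-A and a ribosomal depletion preparation without saying which library had which. The LYT013 column is headed LYT013.1.

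Inverting the inverse hyperbolic sine form of the values gave whole numbers within 0.1 for 100.0% of values above the lowest in every library. These counts, 14052502 to 31816055 per library, were divided by the library's size factor (geometric mean set to 1). As the deposited unit is transformed, limma 3.58.1 in R 4.3.3 on the deposited values was the main test: group as term, mean-variance trend, two-sided, Benjamini-Hochberg at 0.05 over genes that exceeded the lowest value in 4 or more of 9 (3 or more of 7) libraries. This scale understates changes at low counts. The procedure was tested on simulated counts. Few 31-base words of the 10 genes' transcripts recur in other genes (at most 2.0%, Klf4). Positions and lengths are from GENCODE M21 on GRCm38.

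The 10 genes, the lists and the 7-library set were chosen with earlier results of these data known. The text names Yap1, all 10 genes, the 3 genes most correlated with the mean, Klf2, Klf9 and Egr1, and abundant markers. From the lists it names some, not all, of the genes with the smallest p (4 per set). Genes named for how LYT013, LYT014 or LYT016 stood (among them Atf3, Fos, Fosb, Fosl1, Dnajb1, Hspa1a, Hspa1b, Fkbp5, Zbtb16 and stellate markers) were chosen after their values were seen. Alternatives covered the filter, scaling, transformation, voom, the trend, library code range and the omission of each library.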

Additional observations from a re-analysis of the deposited data

Results flagged for a closer look

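Within their labelled groups, 2 Yap1 values stood far from the rest, of 22 group and gene combinations checked (Yap1 and the 10 genes in each group). Chance flags about 1 in 20 where no value is known beforehand. Both Yap1 values were already known to go against their labels, so their flags restate that and are no separate result. The check used the log2-like values. Control LYT014, at 620 normalised counts, had a gap to the next control of 0.867 of the group's range on that scale. YAP-deleted LYT013, at 2537 normalised counts, had a gap of 0.994 of the range. None of the 10 genes had such a value in either group on the log2-like scale. On normalised counts this was not checked.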

How the results depend on the processing

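None of the 10 genes passed under any alternative, in the 9 or the 7 libraries. Of 180 alternative values of their differences in the 9 libraries 173 kept the sign, and of 130 in the 7 libraries 121 did. Klf6, Egr2, Ier2 and Nr4a1 kept it throughout in both, but their size moved by over 1.5 times for Egr2 (0.12 without LYT017 and 0.14 without LYT006, of 9, 0.056 among codes 13 to 17, and 0.51 without LYT013 and LYT014) and Nr4a1 (0.084 without LYT017, of 9, and 0.10 without it, of 7). Among the 9, Klf10 ran from -0.23 to -0.025 (without LYT015) and Egr3 from -0.83 (without LYT017) to -0.27 (without LYT014). Klf9 turned to 0.069 without LYT013 and LYT014, and Egr1 to -0.19 among codes 13 to 17. Leaving out 1 of the 9 libraries gave -0.024 to 0.57 for Klf2 (negative without LYT013), -0.088 to 0.42 for Klf4 (negative without LYT013 or LYT005), -0.50 to 0.14 for Klf9 (positive without LYT013) and -0.044 to 0.23 for Egr1 (negative without LYT006). Leaving out 1 of the 7 gave -0.029 to 0.35 for Klf2 (without LYT017), -0.11 to 0.34 for Klf4 (without LYT005), -0.15 to 0.27 for Klf9 (without LYT016), -0.21 to 0.063 for Klf10 (without LYT008 or LYT015) and -0.43 to 0.16 for Egr3 (positive without LYT004, LYT005, LYT006 or LYT016). The cause was not tested.

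The count of genes called in the 9 libraries was 0 under each alternative setting and with any 1 library left out, and 2 among codes 4 to 8 alone. In the 7 it was 12, 25 with the library code range as covariate, and 3 to 11 with 1 library left out (3 without LYT006, 5 without LYT017, 6 without LYT004, 7 without LYT008 or LYT016). Shifting each library to a common median moved unadjusted calls from 608 higher and 634 lower to 755 and 451 in the 9 libraries, and from 566 and 525 to 643 and 362 in the 7. No paired analysis was possible because the groups share no replicate number.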
